A study of Arabidopsis thaliana with 80 samples.

Results

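These are the genes of Arabidopsis thaliana whose transcripts were near 0 in rosettes of the accession Vel and present in every other accession of the study, or the reverse. A gene was kept as low in Vel only when its mean log2 value over the collections ex1 to ex3 was under 0.3 in Vel and at least 1.5 in each of Bon, Moj and Col-0. It was kept as high in Vel only when the mean was at least 1.5 in Vel and under 0.3 in each of the others. The first side held 34 genes and the second 30, together 64 of the 33602 genes measured.

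Vel, Bon and Moj are natural accessions from southern Spain, and Col-0 is the laboratory accession whose genome is the species' reference. Plants grew from sown seed in pots in a common garden in southern Spain, and each library was made from the rosettes of 5 pooled plants, with roots discarded. The 80 libraries fall into 4 collections, ex1 to ex4, each sampled in the evening and in the morning as the labels call them, the protocol calling the later time afternoon. No sample label pairs a collection with a stage, although the protocol names vegetative, inductive and reproductive plants. The labels name no transgene or treatment. The rule used 17 Vel, 18 Bon, 16 Moj and 17 Col-0 libraries, and ex4 added 6 Vel and 5 Col-0 libraries. Nothing in the labels says that replicate pools came from separate sowings, so the p-values measure the spread between pools of one garden.

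Values are deposited per gene, normalized for gene length, as log2 of 1 plus the level, so that a gene with no reads has 0. This scale understates the change of weakly expressed genes. All libraries were given the same distribution of values, and the table holds no counts, so the depth of each library is unknown. Between 20428 and 22858 genes were above 0 in a library. The rosette genes RBCS1A, which encodes a small subunit of Rubisco, and RCA, its activase, were at or above 10.0 in all 80 libraries, while the light-harvesting genes LHCB1.1 and LHCB2.1 ran between 3.81 and 12.1 and between 4.63 and 11.4. The root hair genes COBL9, RHD6 and EXPA7 were at or below 0.362 in every library. Of the other root markers WOX5 reached 2.26 and PYK10 ran between 0.32 and 5.37, and 6 flower markers reached between 1.73 in AG and 2.95 in PI. Their part in the levels of the genes described here was not tested. In pooled rosettes, fewer cells of a type and less RNA per cell cannot be told apart.

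The library labelled Moj ex3 morning replicate 1 was left out by the rule and from the tests. Its values across genes were closest to Vel ex3 morning replicate 1, with a correlation of 0.991, against at most 0.963 with any other Moj library.

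Plants carry many intracellular immune receptors with a nucleotide-binding domain and leucine-rich repeats, often called NLR proteins. Each recognises the action of particular pathogen molecules and can start local cell death, and whole-gene absence in some accessions is known for several of them. Small antimicrobial peptides such as defensins and thionins form another layer of defence. In these data reads had been aligned to the TAIR10 genome, which comes from Col-0. A missing gene, a sequence too different to align and a gene that is not transcribed cannot be told apart from expression values alone.

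Some members are near-identical copies, which limits what a value says about 1 gene, and their sequences are shown for that reason. The F-box genes AT1G24800, AT1G24881, AT1G25055 and AT1G25150 on chromosome 1 were 100% identical to each other over best aligned segments of 1527 to 1832 bases. The 100 bases before the annotated start of AT1G24800, chr1:8769411-8769510 on the plus strand of RefSeq's TAIR10.1 assembly, occur exactly 5 times in the chromosomes. All 5 occurrences lie on the plus strand of chromosome 1, the farthest at chr1:8835075-8835174.
bases before AT1G24800: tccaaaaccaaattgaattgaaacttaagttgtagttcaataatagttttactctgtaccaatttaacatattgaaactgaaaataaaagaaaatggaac

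On the high side AT1G36590 and AT3G11970, annotated as pseudogenes on chromosomes 1 and 3, were 99.9% identical over 4500 bases. The 100 bases before the annotated start of AT1G36590, chr1:13818876-13818975, matched chr3:3812227-3812326 on the minus strand, at AT3G11970, at all 100 positions. Reads of such copies cannot be assigned to 1 of them, so the 2 values of this pair are not independent.
bases before AT1G36590: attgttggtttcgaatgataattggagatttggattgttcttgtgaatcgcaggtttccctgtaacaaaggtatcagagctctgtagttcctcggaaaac

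PDF1.2, the defensin gene used as a marker of jasmonate and ethylene responses, is known to be induced through a GCC box, the element bound by ethylene response factors. Its 300 bases before the annotated start, chr5:17907639-17907938 on the minus strand, are shown with the core GCCGCC, searched on both strands, in capitals.
bases before PDF1.2: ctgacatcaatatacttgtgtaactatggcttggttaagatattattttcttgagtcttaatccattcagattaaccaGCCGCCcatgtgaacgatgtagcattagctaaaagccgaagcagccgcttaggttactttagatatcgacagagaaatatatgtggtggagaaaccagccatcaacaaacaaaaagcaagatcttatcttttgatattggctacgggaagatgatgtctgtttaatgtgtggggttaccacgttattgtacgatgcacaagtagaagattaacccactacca
This is the Col-0 sequence, and the Vel sequence was not analysed here. The core occurred in 1 of 34 genes on the low side, in 1 of 28 placed genes on the high side and in 2.36% of the 32835 windows of the same length before annotated genes.

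Among the genes low in Vel only, immune receptors formed the largest annotated class. Classes were read from the words of the annotated product, note, symbol and synonyms. By these words, 9 of the 34 genes, or 26.5%, were disease resistance, NB-ARC or TIR genes, against 0.768% of all genes in the table. AT4G19500, annotated as a nucleotide-binding transmembrane receptor, stands beside 2 of them and was not caught by these words. Protein-coding genes made up 31 of the 34, and 5 were F-box genes, which encode the substrate-binding part of ubiquitin ligases. The genes were chosen by these accession means, so the levels in ex1 to ex3 are given as a description, with no test. Over the 34 genes the Vel mean ran from 0 to 0.251 with a median of 0.0196, against medians of 2.83 in Bon, 2.77 in Moj and 3.23 in Col-0. In Vel 84.4% of the 578 values were exactly 0, and 10 genes were at 0 in every Vel library of ex1 to ex3. The groups did not overlap in 31 of the 34 genes, the exceptions being PDF1.2, AT3G62510 and AT3G53310. The rule itself makes such separation likely, and its share over all genes was not counted in ex1 to ex3.

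**Figure D1:**
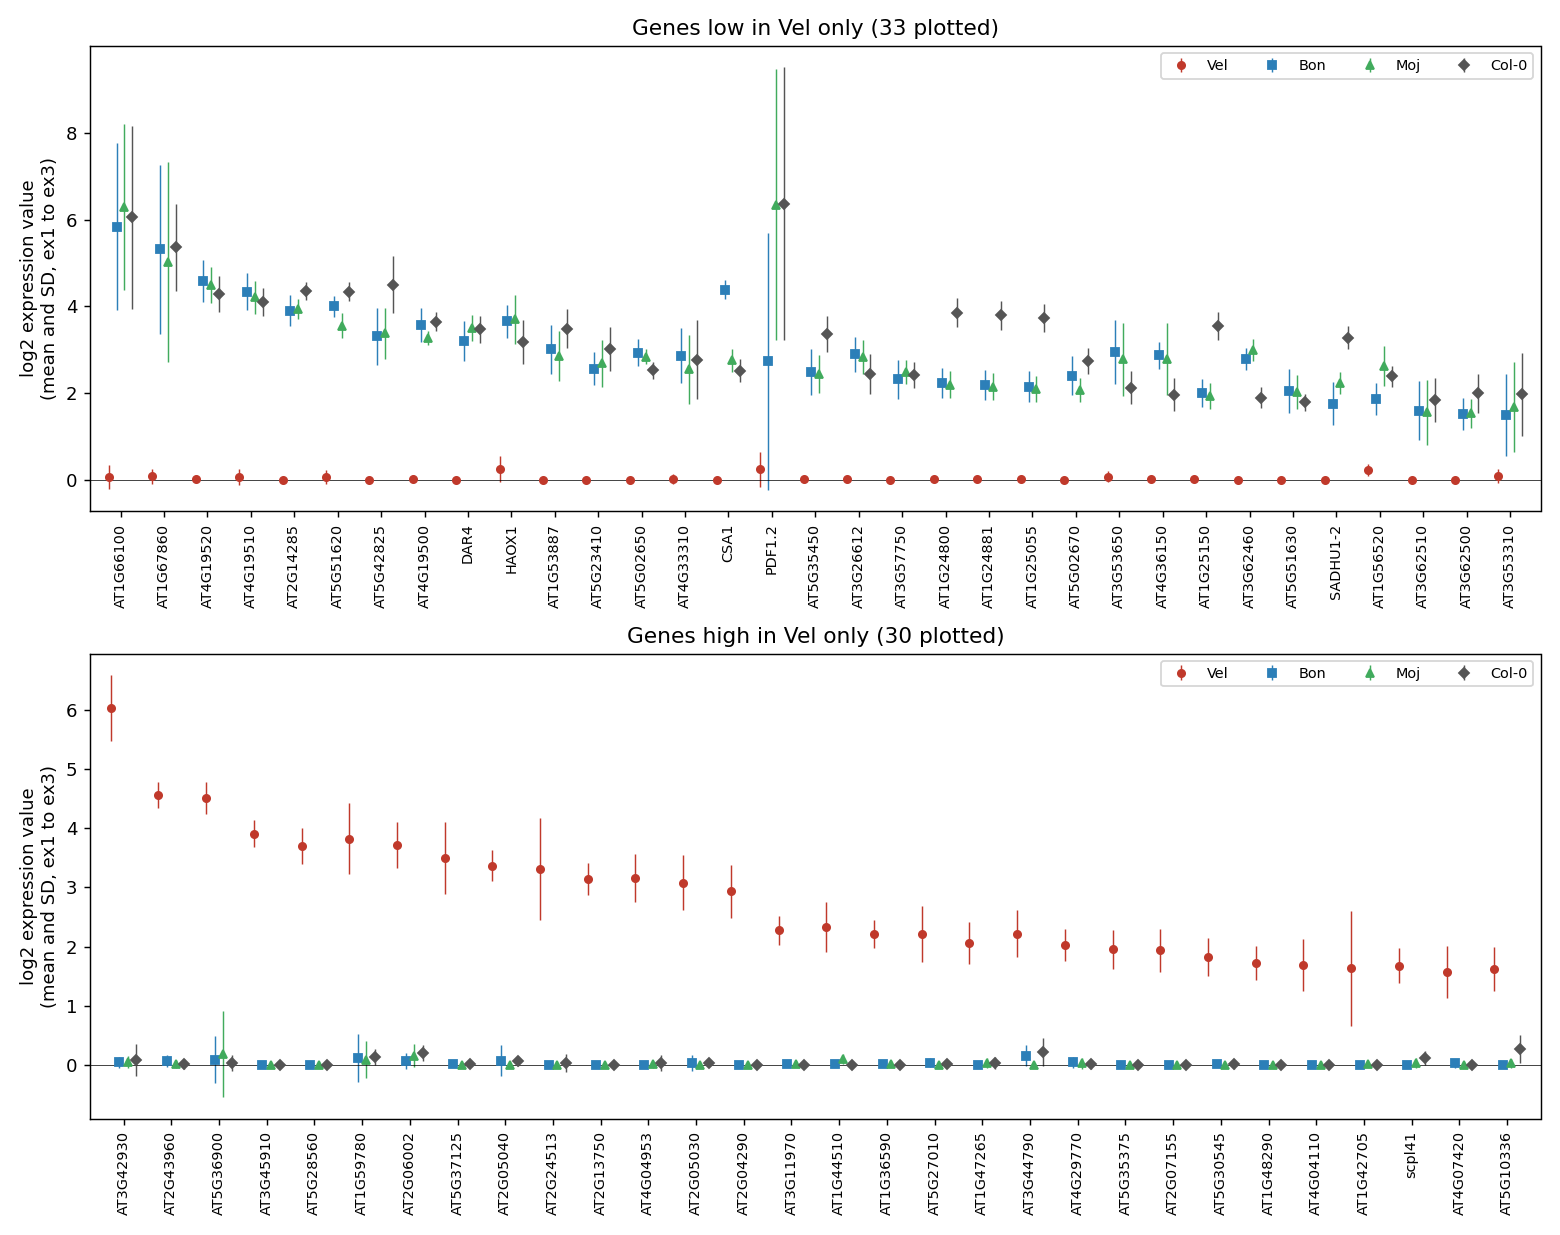
Mean log2 expression value in ex1 to ex3 of 33 of the low and all 30 high genes by accession, with the SD over libraries as bars (17 Vel, 18 Bon, 16 Moj and 17 Col-0 libraries). Vel means lie at or below 0.251 in the upper panel and at or above 1.58 in the lower panel, where the other accessions stay below 0.3.

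A run of 3 receptor genes on chromosome 4, chr4:10625562-10647280, was low in Vel as a block. AT4G19520, a TIR-NBS-LRR gene, had a lowest, median and highest value of 0, 0 and 0.25 in Vel, against 3.89, 4.47 and 5.59 in Bon, 4.02, 4.38 and 5.44 in Moj, and 3.66, 4.09 and 4.93 in Col-0. AT4G19510, of the same class, averaged 0.0646 ± 0.182 in Vel, 4.34 ± 0.418 in Bon, 4.21 ± 0.375 in Moj and 4.10 ± 0.329 in Col-0 (SD over the libraries given above, as in all averages over ex1 to ex3 below). AT4G19500 averaged 0.0364 ± 0.0740 in Vel, 3.57 ± 0.386 in Bon, 3.27 ± 0.166 in Moj and 3.65 ± 0.217 in Col-0. No Vel library came near the lowest library of another accession in any of the 3 genes. The genes on either side were expressed in Vel. VPS54, which encodes a subunit of a Golgi tethering complex, averaged 3.82 in Vel and 4.0 in Col-0, and the next receptor gene, AT4G19530, averaged 3.29 in Vel and 3.14 in Col-0. None of the 3 genes had a copy of at least 80% identity over 80% of its length. The best aligned segment between AT4G19500 and AT4G19520 was 249 bases long, and AT4G19510 aligned with neither.

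On chromosome 5 the neighbours CSA1 and DAR4 were low in Vel together. DAR4, also known as CHS3, joins a receptor to a LIM domain, and CSA1 is its partner in a receptor pair. The genes lie head to head, CSA1 at chr5:5908834-5913317 on the minus strand and DAR4 at chr5:5916862-5923494 on the plus strand. CSA1 had a lowest, median and highest value of 0, 0 and 0.10 in Vel, against 3.97, 4.33 and 4.82 in Bon, 2.30, 2.79 and 3.21 in Moj, and 2.04, 2.53 and 3.06 in Col-0. Bon stood above Moj and Col-0 with no overlap. DAR4 averaged 0.0109 ± 0.0319 in Vel, 3.19 ± 0.459 in Bon, 3.49 ± 0.301 in Moj and 3.47 ± 0.314 in Col-0. In ex1 alone DAR4 averaged 2.75 ± 0.313 in Bon, 3.61 ± 0.201 in Moj and 3.50 ± 0.155 in Col-0 (SD over the ex1 libraries). In ex3 it averaged 3.54 in Bon, 3.39 in Moj and 3.37 in Col-0. Bon, Moj and Col-0 were not tested against each other. PSRP6, a plastid ribosomal protein gene next to CSA1, averaged 6.28 in Vel and 6.84 in Col-0, and AT5G17900, next to DAR4, averaged 3.61 in Vel and 4.21 in Col-0.

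The other receptor genes were scattered. AT5G35450, a CC-NBS-LRR gene, averaged 0.0193 ± 0.0795 in Vel, 2.49 ± 0.526 in Bon, 2.45 ± 0.440 in Moj and 3.37 ± 0.413 in Col-0. AT4G36150 averaged 0.0279 ± 0.0727 in Vel, 2.87 ± 0.312 in Bon, 2.79 ± 0.826 in Moj and 1.96 ± 0.381 in Col-0. Its left neighbour AT4G36140 averaged 0.0208 in Vel and 0.0964 in Bon, against 3.27 in Moj and 2.91 in Col-0, so it was low in Bon too and is not a member.

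AT5G51630 was at 0 in all Vel libraries and averaged 2.05 ± 0.512 in Bon, 2.02 ± 0.390 in Moj and 1.80 ± 0.197 in Col-0. It stands next to AT5G51620, an uncharacterized protein gene that averaged 0.0644 ± 0.161 in Vel, 4.0 ± 0.246 in Bon, 3.56 ± 0.292 in Moj and 4.34 ± 0.214 in Col-0. YLS7, annotated on the other strand over the end of AT5G51630, averaged 3.09 in Vel and 3.21 in Col-0. AT1G56520 kept a trace in Vel, above 0 in 15 of 17 libraries with a mean of 0.225 ± 0.138, against 1.87 ± 0.363 in Bon, 2.62 ± 0.460 in Moj and 2.39 ± 0.233 in Col-0. It shares 80.2% identity with its neighbour WRR4, a white rust resistance gene, which averaged 0.720 in Vel, 3.78 in Bon, 3.86 in Moj and 4.05 in Col-0. AT3G57750, known as ZED1, encodes a pseudokinase that the receptor ZAR1 monitors. It averaged 0.00576 ± 0.0238 in Vel, 2.32 ± 0.455 in Bon, 2.50 ± 0.276 in Moj and 2.43 ± 0.297 in Col-0.

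**Figure D2:**
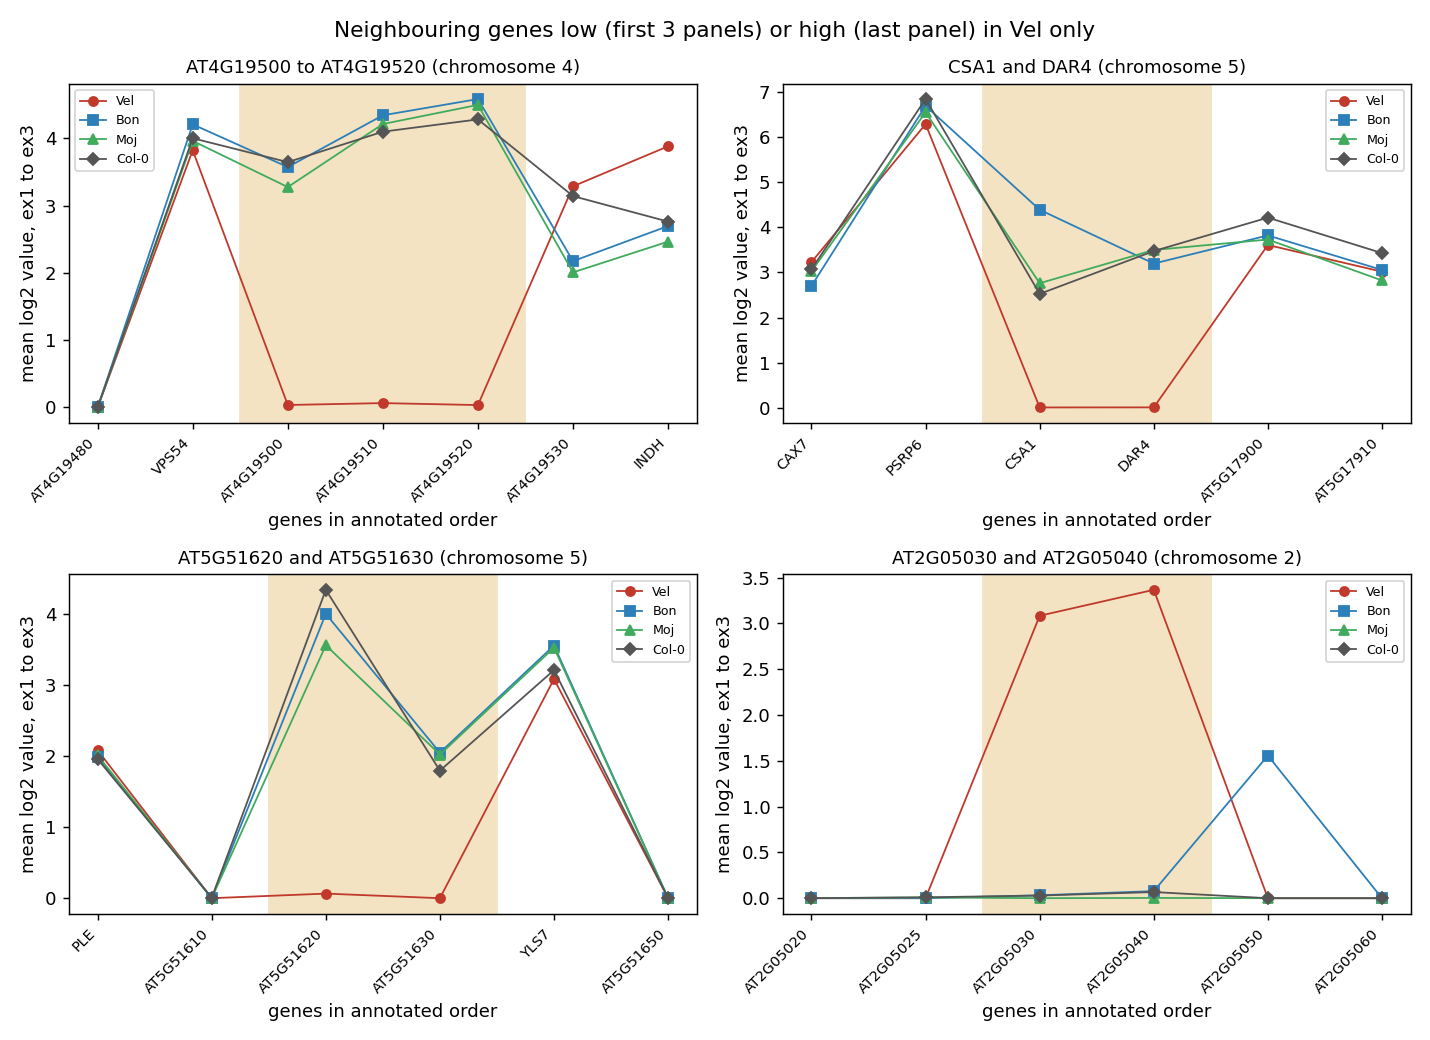
Mean log2 expression value in ex1 to ex3 of genes in annotated order around 4 runs of neighbouring members, which are shaded, by accession. In the first 3 panels the Vel line drops to 0.0646 or less in the shaded genes and does not do so alone in any gene outside them, with INDH at 3.88 in Vel against 2.70 in Bon, 2.46 in Moj and 2.76 in Col-0, and in the last panel it stands at 3.08 and 3.37 where the others are at or below 0.0771.

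A further pair of runs was less compact. AT5G02650 and AT5G02670, both uncharacterized, were at 0 in every Vel library and lie on either side of AT5G02660, which was at or below 0.00417 on average in every accession. On chromosome 3 AT3G62460, AT3G62500 and AT3G62510 were at 0 in every Vel library. Between them AT3G62490, a pseudogene, averaged 1.37 in Vel and 0 in Bon and Col-0, so the stretch held a gene with the opposite pattern. The annotations of AT3G62500 and AT3G62510 overlap on 1 strand, and reads in the overlap cannot be told apart. Over all low members, 11 of the 55 nearest expressed flanking genes, or 20.0%, were lower in Vel than in Col-0 by at least 1, against 3.89% of 17566 comparable genes. Of these 11, LpxC1, AT1G24879, LpxC3, LpxC4 and AT1G25175 flank the F-box copies, and all 5 were at or below 0.871 in Vel, Bon and Moj alike, so for them Col-0 was the accession apart. Likewise PDF1.2c averaged 2.45 in Vel, 1.72 in Bon and 1.64 in Moj, against 4.52 in Col-0, and AT4G36140 was low in Bon too. In WRR4, AT3G57730, AT3G62470 and AT5G44410 Vel had the lowest mean.

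The antimicrobial peptide genes reached the highest single values on the low side. AT1G66100, a thionin gene, was at 0 in 16 of 17 Vel libraries and reached 1.13 in the other. Its lowest, median and highest values were 1.96, 6.04 and 8.02 in Bon, 1.93, 6.70 and 8.27 in Moj, and 2.43, 6.90 and 8.70 in Col-0. PDF1.2 had 0, 0 and 1.17 in Vel, against 0, 1.26 and 9.21 in Bon, 1.1, 6.08 and 10.3 in Moj, and 1.99, 5.72 and 13.3 in Col-0. The Vel and Bon ranges of PDF1.2 overlapped, and 3 Bon libraries were at 0. Some relatives of these genes were expressed in Vel, and others were low in every accession. AT2G15010 averaged 0 in Vel and Col-0, THI2.1 averaged 0.238 ± 0.285 in Vel and 0.232 ± 0.412 in Col-0, and LCR67 averaged 0.524 ± 0.761 in Vel and 0.341 ± 0.778 in Col-0. PDF1.2b averaged 3.80 ± 2.57 in Vel, 2.01 ± 2.55 in Bon, 4.66 ± 3.45 in Moj and 3.58 ± 3.26 in Col-0. PDF1.2c, which lies next to PDF1.2, averaged 2.45 ± 2.64 in Vel and 4.52 ± 3.63 in Col-0. PDF1.3 averaged 4.44 ± 2.73 in Vel and 5.05 ± 2.88 in Col-0, and the thionin gene THI2.2 averaged 3.56 ± 1.49 in Vel and 4.66 ± 1.17 in Col-0. In none of these did Vel and Col-0 differ by more than the SD. That SD also holds the changes between collections and times, so it does not measure the spread that bears on a difference between accessions. These differences were not tested here.

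AT1G67860, an uncharacterized protein gene, had a lowest, median and highest value of 0, 0 and 0.45 in Vel, against 2.27, 6.25 and 7.32 in Bon, 1.59, 6.27 and 7.14 in Moj, and 3.44, 5.76 and 6.57 in Col-0. AT2G14285, annotated as a small nuclear ribonucleoprotein gene and thus of the class that builds the splicing machinery, was at 0 in every Vel library and averaged 3.91 ± 0.366 in Bon, 3.94 ± 0.233 in Moj and 4.36 ± 0.204 in Col-0. AT5G42825, uncharacterized, was likewise at 0 in Vel and averaged 3.31 ± 0.653 in Bon, 3.38 ± 0.585 in Moj and 4.5 ± 0.658 in Col-0. None of these 3 genes had a Vel library within the range of another accession. HAOX1, a 2-hydroxy acid oxidase gene, had the highest Vel mean of the side, 0.251 ± 0.299, against 3.66 ± 0.384 in Bon, 3.71 ± 0.563 in Moj and 3.18 ± 0.503 in Col-0. Its relative HAOX2 averaged 2.98 in Vel and 3.65 in Col-0. SADHU1-2, a noncoding retroelement of a group known to be silenced in some accessions, averaged 0.0105 ± 0.0434 in Vel, 1.76 ± 0.495 in Bon, 2.24 ± 0.257 in Moj and 3.28 ± 0.264 in Col-0.

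The 4 F-box copies averaged between 0.0199 and 0.0251 in Vel, 2.00 and 2.24 in Bon, 1.94 and 2.20 in Moj, and 3.55 and 3.85 in Col-0. AT1G25211, which carries the fifth upstream copy, followed the same order at 0.00532 in Vel, 1.12 in Bon, 1.08 in Moj and 3.01 in Col-0 and missed the rule. Counted as 1 locus, the low side holds 31 entries. The counts of low members called in the tests below take the F-box copies as separate genes, although their values are not independent. The LpxC genes beside the F-box copies were low in all 3 Spanish accessions: LpxC3 averaged 0.499 in Vel, 0.739 in Bon and 0.641 in Moj, against 5.43 in Col-0. The rest of the side held the noncoding RNA genes AT5G23410 and AT3G26612, the histone gene AT3G53650, the F-box gene AT3G62500, the B3 transcription factor gene AT3G53310 and uncharacterized genes such as AT1G53887 and AT4G33310, with Vel means of at most 0.0988.

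The genes high in Vel only were of another kind. Only 13 of the 30, or 43.3%, were protein-coding, against 79.5% of the table, and 14, or 46.7%, were annotated as pseudogenes, against 11.6% of the table. The product of 20, or 66.7%, was uncharacterized, against 18.2% of the table, and AT2G24513 and AT4G04953 had no entry in the reference used. Vel means ran from 1.58 to 6.03 with a median of 2.30. Of the values in the other accessions, 82.0% were exactly 0 in Bon, 82.7% in Moj and 77.6% in Col-0. No Vel library overlapped another accession in any of the 30 genes, a separation that also follows in part from the rule.

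AT3G42930, an annotated pseudogene at chr3:14998007-14999235, had the highest level, with a lowest, median and highest value of 5.14, 6.04 and 6.97 in Vel. Its highest library was at 0.30 in Bon, 0.32 in Moj and 1.12 in Col-0. AT5G30545 and AT4G07420, 95.9% and 94.5% identical to it, averaged 1.82 ± 0.319 and 1.58 ± 0.441 in Vel, so the 3 values may share reads. In all, 6 genes match AT3G42930 at 80% identity or more over 80% of its length, so reads of other copies may enter too. AT2G43960, which encodes a SWAP domain found in splicing regulators, averaged 4.55 ± 0.219 in Vel, 0.0762 ± 0.103 in Bon, 0.0216 ± 0.0632 in Moj and 0.0199 ± 0.0822 in Col-0. AT5G36900, uncharacterized, averaged 4.51 ± 0.275 in Vel, 0.0930 ± 0.394 in Bon, 0.185 ± 0.729 in Moj and 0.0340 ± 0.140 in Col-0, where 1 Moj library reached 2.92 and 1 Bon library 1.67. AT3G45910, AT5G28560, AT5G35375 and AT1G48290 were at 0 in every Bon, Moj and Col-0 library of ex1 to ex3, and averaged 3.90, 3.70, 1.96 and 1.72 in Vel.

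Immune receptors were also among the genes high in Vel only, at 2 of the 30, or 6.67%, against 0.768% of the table. AT1G59780, an NB-ARC gene at chr1:21993220-21999632, had 2.26, 4.09 and 4.38 as its lowest, median and highest value in Vel, against a highest value of 1.73 in Bon, 1.27 in Moj and 0.36 in Col-0. AT4G04110, a TIR domain gene, averaged 1.69 ± 0.431 in Vel and was at 0 in 17 of 18 Bon, all 16 Moj and all 17 Col-0 libraries. AT3G44790, of the TRAF-like family, averaged 2.22 ± 0.389 in Vel, 0.163 ± 0.175 in Bon, 0 in Moj and 0.230 ± 0.237 in Col-0. AT4G29770, annotated as a target of trans-acting small RNAs and known as HTT1 for its induction by heat, averaged 2.03 ± 0.267 in Vel and 0.0212 ± 0.0778 in Col-0. The carboxypeptidase gene scpl41 averaged 1.68 ± 0.298 in Vel and 0.119 ± 0.124 in Col-0.

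Of the remaining genes, the noncoding AT2G06002 averaged 3.72 in Vel and 0.203 in Col-0, and AT5G37125, AT2G24513, AT2G13750, AT4G04953 and AT2G04290 averaged 3.50, 3.31, 3.15, 3.16 and 2.94 in Vel. The only run on this side was AT2G05030 with AT2G05040 at chr2:1781886-1786463, pseudogenes that averaged 3.08 ± 0.472 and 3.37 ± 0.264 in Vel. The next gene, AT2G05050, was at 0 in Vel and averaged 1.56 in Bon. Among the 50 annotated genes nearest to each placed member, pseudogenes made up a median of 26% on the high side, against 3% on the low side and 2% for all genes. The share passed 20% around 17 of 28 placed genes on the high side, or 60.7%, around 2 of 34 on the low side, or 5.88%, and around 15.9% of all genes.

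**Figure D3:**
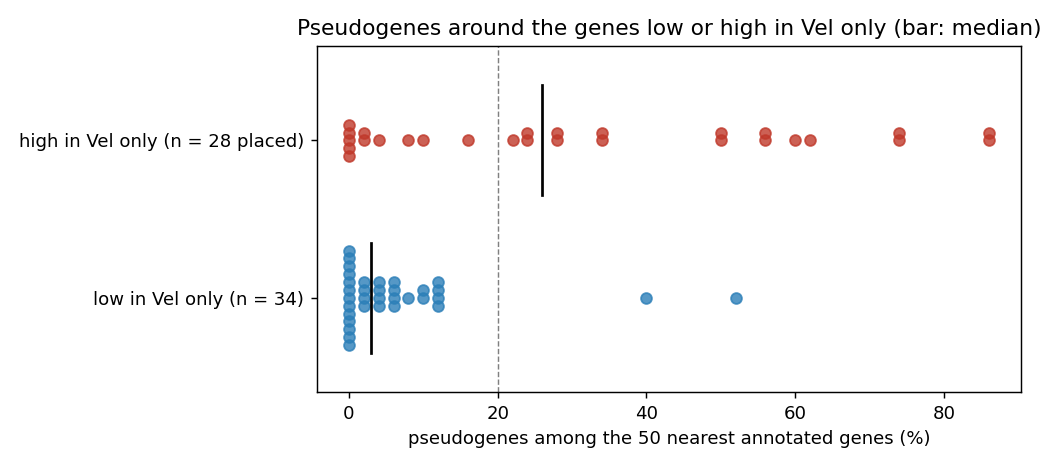
Share of pseudogenes among the 50 nearest annotated genes, 1 point per gene, with the high side above the low side. The medians, drawn as bars, are 26% and 3%, and the dashed line stands at 20%.

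The thresholds divide a continuum. Just inside on the low side, AT3G53310 had a Bon mean of 1.51 and AT3G62500 a Bon mean of 1.52. Just outside, TSF, a flowering-time relative of FT, averaged 0.167 in Vel and 1.49 in Col-0, and AT3G57730, beside ZED1, averaged 0.137 in Vel and 1.48 in Bon. LSM3A, which encodes a subunit of RNA-binding Lsm rings, missed the Vel limit at 0.334 against 4.65 in Bon, 4.71 in Moj and 4.63 in Col-0, and AT3G49320 missed it at 0.309. On the high side AT4G07420 and AT5G10336 were just inside at 1.58 and 1.62 in Vel, and AT2G24340 and AT3G23970 just outside at 1.497 and 1.492. AT2G01023, at 1.79 in Vel and 0.309 in Bon, and AT2G19610, at 1.71 in Vel and 0.376 in Moj, missed the limit for the other accessions. The same rule turned on the other accessions gave 17 low and 38 high genes for Bon, 14 and 19 for Moj, and 39 and 79 for Col-0.

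The fourth collection was not used by the rule and shows the same measure in other libraries, for Vel and Col-0. All 34 low genes were lower in Vel and all 30 high genes higher, at an adjusted p under 0.05 in limma over the 18636 genes tested. Over all those genes 29% were called lower and 26.1% higher in Vel, 55.1% in all. A gene enters the test by reaching 1 in 3 or more libraries, which a member can only do in the accession where it is high, so these counts follow in part from the filter. The test also shares 1 spread between Vel and Col-0. In most members the accession near 0 varies little, which lowers that estimate and with it the p-values. Log2 differences ran from -7.29 to -1.49 with a median of -3.39 on the low side and from 0.98 to 6.59 with a median of 2.76 on the high side, beside a median of -0.03 over all genes. In 33 of 34 low genes and all 30 high genes the ranges of the 6 Vel and 5 Col-0 libraries did not overlap, against 11.3% of all genes with Vel lower and 10.5% with Vel higher. In Vel 21 of the low genes were at 0 in all 6 libraries, and in Col-0 13 of the high genes were at 0 in all 5.

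**Figure D4:**
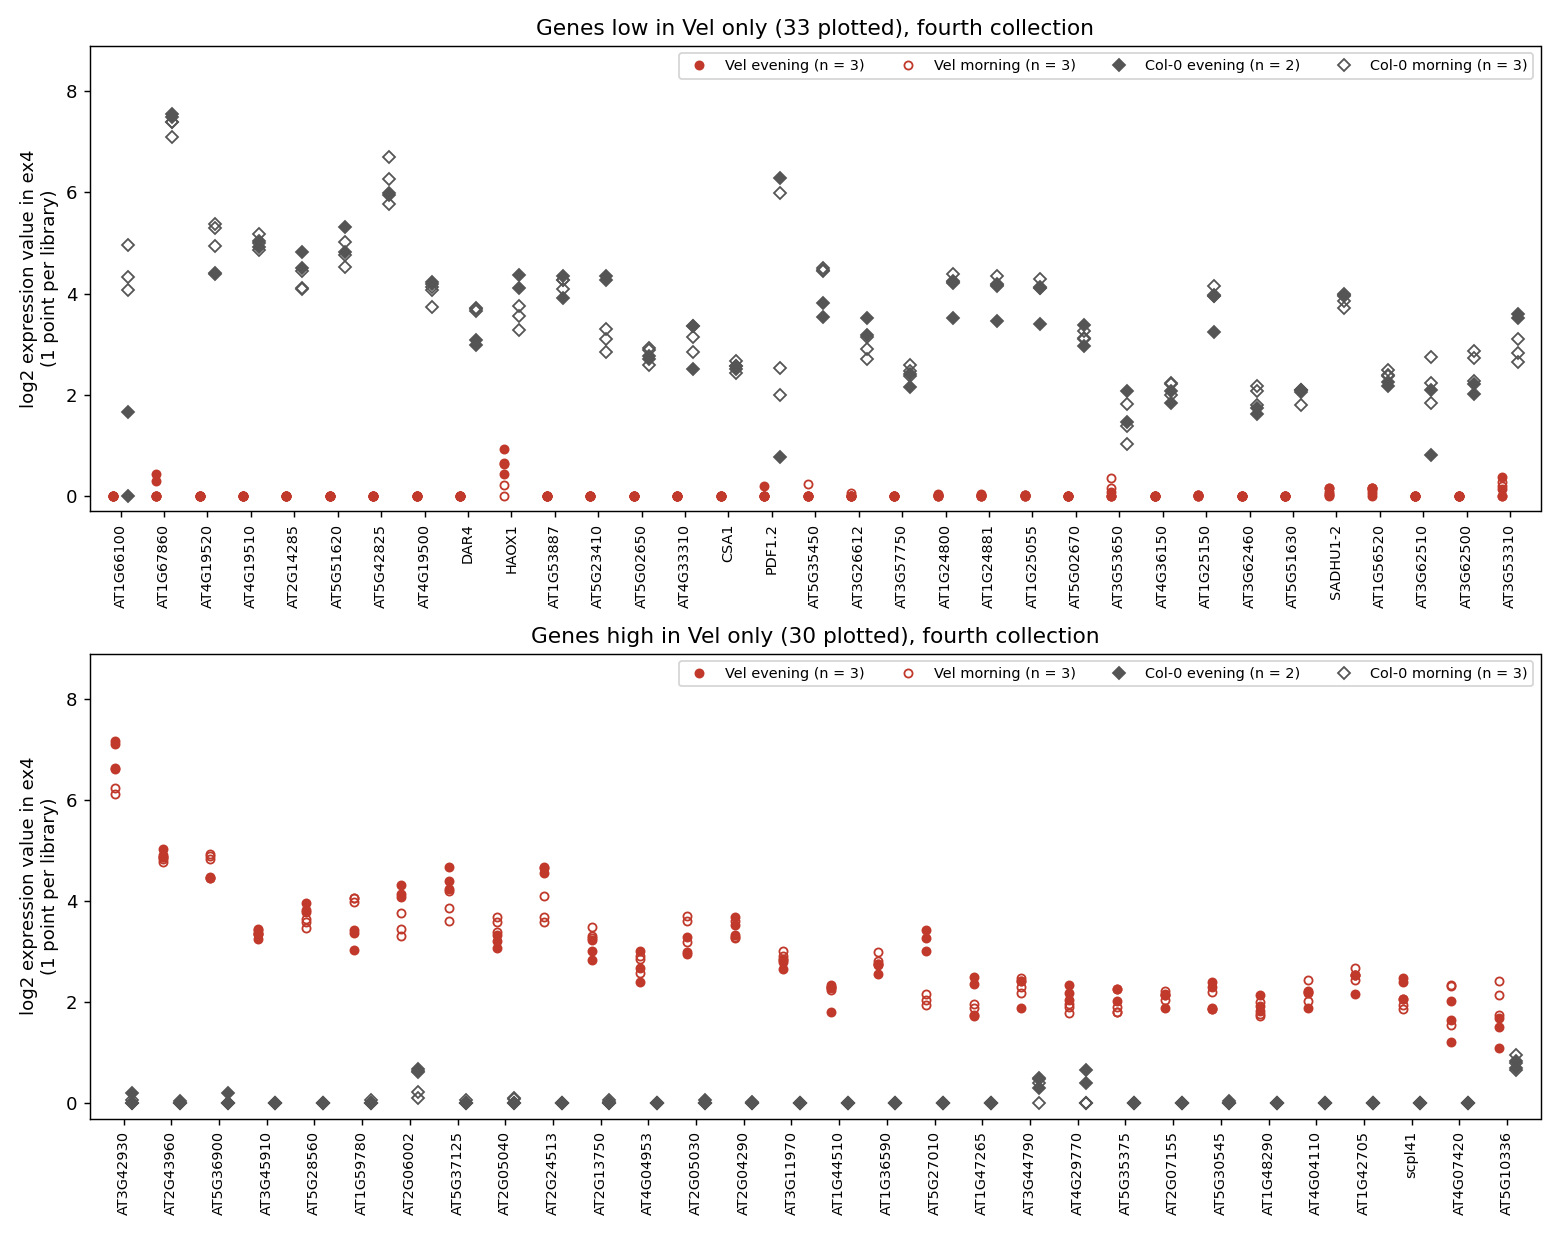
Log2 expression value of 33 of the low and all 30 high genes in the 11 libraries of ex4, 1 point per library, with Vel left of Col-0 and evening filled. The accessions overlap in AT1G66100 alone, where a Col-0 evening library is at 0.

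The largest difference was that of AT1G67860, with 0.43, 0.28, 0, 0, 0 and 0 in Vel, against 7.50, 7.56, 7.09, 7.39 and 7.38 in Col-0 (the evening libraries first in each list of ex4 values). Its difference was -7.29 ± 0.0933 (SE, adjusted p = 5.26e-12, limma). CSA1 was at 0 in all 6 Vel libraries and at 2.57, 2.50, 2.66, 2.43 and 2.56 in Col-0, a difference of -2.54 ± 0.0772 (SE, adjusted p = 1.29e-09, limma). Neither gene had a Vel library near the Col-0 range. AT4G19520 was at 0 in Vel and at 4.40, 4.39, 5.37, 5.30 and 4.93 in Col-0.

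The peptide genes were less even in Col-0. PDF1.2 was at 0, 0, 0.18, 0, 0 and 0 in Vel, against 6.29, 0.77, 2.53, 6.0 and 2.00 in Col-0, a difference of -3.49 ± 0.950 (SE, adjusted p = 0.0101, limma), the largest adjusted p of the side. AT1G66100 was at 0 in all Vel libraries and at 0, 1.66, 4.07, 4.96 and 4.33 in Col-0, a difference of -2.64 ± 0.265 (SE, adjusted p = 1.83e-05, limma). The Col-0 evening libraries were the lower ones in AT1G66100, while in PDF1.2 high and low libraries occurred at both times.

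On the high side AT3G42930 was at 6.64, 7.18, 7.10, 6.23, 6.13 and 6.61 in Vel, against 0.20, 0, 0, 0 and 0.07 in Col-0, a difference of 6.59 ± 0.121 (SE, adjusted p = 3.11e-11, limma). AT1G59780 was at 3.03, 3.37, 3.43, 3.99, 4.06 and 4.07 in Vel, against 0, 0, 0, 0 and 0.06 in Col-0, and differed by 3.65 ± 0.0877 (SE, adjusted p = 2.16e-10, limma). The smallest difference was in AT5G10336, an uncharacterized gene with 1.69, 1.51, 1.1, 2.43, 2.14 and 1.75 in Vel, against 0.70, 0.85, 0.97, 0.66 and 0.80 in Col-0. It amounted to 0.98 ± 0.148 (SE, adjusted p = 3.14e-04, limma), and here Col-0 was not near 0.

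Loci known to vary among accessions, among them receptors, glucosinolate enzymes and flowering genes, were set beside the members. In ex4 19 of a list of 20 could be tested, and 6 were higher and 12 lower in Vel, beside the 26.1% higher and 29% lower of all genes. Of the list, 1 locus is itself a member, so its call follows in part from the rule. ESP, which diverts glucosinolate breakdown, differed by 6.88 and AOP2, an enzyme of glucosinolate side chains, by 4.10. For both, Col-0 was the accession apart in ex1 to ex3. ESP averaged 8.08 in Vel, 9.69 in Bon and 10.4 in Moj, against 3.14 in Col-0. AOP2 averaged 6.88 in Vel, 7.37 in Bon and 7.46 in Moj, against 4.13 in Col-0. ACD6, a membrane regulator of defence, differed by -1.96 and RPP8, a receptor against downy mildew, by -1.77. The receptor RPM1 was not called (adjusted p = 0.069, limma).

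Time of day is averaged over in the rule, so it could be tested within the accessions that have the transcripts. In Bon, Moj and Col-0 over ex1 to ex3, 11 of the 34 low genes were higher and 12 lower in the evening than in the morning, where 33.3% of all 20871 genes tested were higher and 33.3% lower, 66.6% in all. With the spread taken from these 3 accessions alone, 9 were higher and 11 lower, against 33.4% and 33.4% of 20565 genes. The standard errors were then larger in 33 of the 34 genes, by a median factor of 1.15, since Vel is near 0 in these genes. For single low genes, the p-values between times and between collections are from the fit with all libraries. AT1G66100 averaged 4.82 ± 2.15 in the evening and 6.86 ± 0.966 in the morning in Bon, 5.27 ± 2.22 in the evening and 7.32 ± 0.735 in the morning in Moj, and 4.38 ± 1.95 in the evening and 7.53 ± 0.602 in the morning in Col-0. The evening mean was below the morning mean in all 9 pairs of accession and collection, and the log2 difference was -2.18 ± 0.153 (SE, adjusted p = 6.88e-19, limma). It was the only low member whose called difference reached 1.

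The receptors moved less, and not all in the same direction. DAR4 fell by 0.46 in the evening, lower in 8 of 9 pairs, and AT5G35450 fell by 0.54, lower in 7 of 9 pairs (adjusted p = 5.41e-15 and 1.49e-14, limma). CSA1, the partner of DAR4, had the higher mean in the evening in Bon, Moj and Col-0 alike. Its evening and morning means were 4.45 and 4.32 in Bon, 2.89 and 2.63 in Moj, and 2.57 and 2.48 in Col-0. The genes with the smallest adjusted p among those higher in the evening were AT5G23410 with a difference of 0.36, AT4G33310 with 0.65 and AT2G14285 with 0.27. AT5G23410 is 99.5% identical to the non-member AT5G42730 over 97.9% of its length, so its value may include reads of that copy. AT4G33310 was higher in 5 of 9 pairs only, with Bon at 2.90 ± 0.832 in the evening and 2.83 ± 0.387 in the morning, and Col-0 at 3.35 ± 0.835 in the evening and 2.25 ± 0.639 in the morning.

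In Vel, 3 of the 30 high genes were higher and 11 lower in the evening when all libraries shared 1 estimate of the spread, against 23.8% higher and 23.3% lower of all genes, 47.1% in all. The libraries of the other accessions are near 0 in these genes and vary little, which lowers that estimate. With the Vel libraries alone, 0 were higher and 8 lower, against 25% higher and 24.4% lower of 19309 genes, with 10 of the 30 at an unadjusted p under 0.05. The standard errors were then larger in 27 of the 30 genes, by a median factor of 1.59. AT2G04290 at -0.40, AT1G44510 at -0.40 and AT5G30545 at -0.31, which had the smallest adjusted p among those lower with all libraries, were each lower in all 3 collections (adjusted p = 5.63e-04, 0.00209 and 0.0253, limma, Vel libraries alone). The receptor AT1G59780 averaged 3.63 ± 0.732 in the evening and 4.03 ± 0.330 in the morning, a difference of -0.43 ± 0.0863 (SE, adjusted p = 3.85e-04, limma, Vel libraries alone). The 3 called higher with all libraries, AT5G27010 at 0.22, AT1G47265 at 0.21 and AT4G04110 at 0.15, had adjusted p = 0.0622, 0.226 and 0.262 in limma with Vel alone. No difference on this side reached 1. In ex4, where the times were not tested, the evening libraries were not lower throughout. AT2G04290 was at 3.34, 3.68 and 3.53 in the Vel evening libraries and at 3.27, 3.30 and 3.6 in the Vel morning libraries, so the times overlapped. AT5G30545 was at 1.88, 2.41 and 2.31 in the evening and at 1.89, 1.88 and 2.21 in the morning, which overlapped too. AT1G59780 was lower in all 3 evening libraries, as its ex4 values above show. AT5G27010 was at 3.01, 3.42 and 3.28 in the evening and at 1.94, 2.05 and 2.17 in the morning, with no overlap.

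From the first to the second collection the share of low members that changed was near that of all genes. In Bon, Moj and Col-0 together, 22 of the 34 were higher and 7 lower in ex2 than in ex1, against 37.9% higher and 42.3% lower of all genes, 80.2% in all. With the spread of these accessions alone the counts were 21 and 7, against 38.2% and 42.5%. AT1G67860 averaged 6.14 ± 0.516 in ex2 and 2.75 ± 0.531 in ex1 in Bon, 6.20 ± 0.262 in ex2 and 1.76 ± 0.119 in ex1 in Moj, and 5.78 ± 0.349 in ex2 and 3.98 ± 0.577 in ex1 in Col-0, a difference of 3.22 ± 0.101 (SE, adjusted p = 1.08e-34, limma). Vel stayed at 0.10 in ex2 and 0.07 in ex1. The B3 gene AT3G53310 rose by 1.41, in all 6 pairs of accession and time (adjusted p = 1.40e-22, limma). PDF1.2 rose by 6.10 ± 0.544 (SE, adjusted p = 3.31e-15, limma), with 9.68 in ex2 and 2.69 in ex1 in Moj, 9.97 in ex2 and 3.19 in ex1 in Col-0, and 4.78 in ex2 and 0.48 in ex1 in Bon. In Vel PDF1.2 was at 0.30 ± 0.494 in ex2 and 0.11 ± 0.276 in ex1. Lower in ex2 were AT1G66100 at a difference of -1.79 (5 of 6 pairs), AT4G33310 at -1.01 and AT5G02670 at -0.61 (6 of 6 pairs each).

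**Figure D5:**
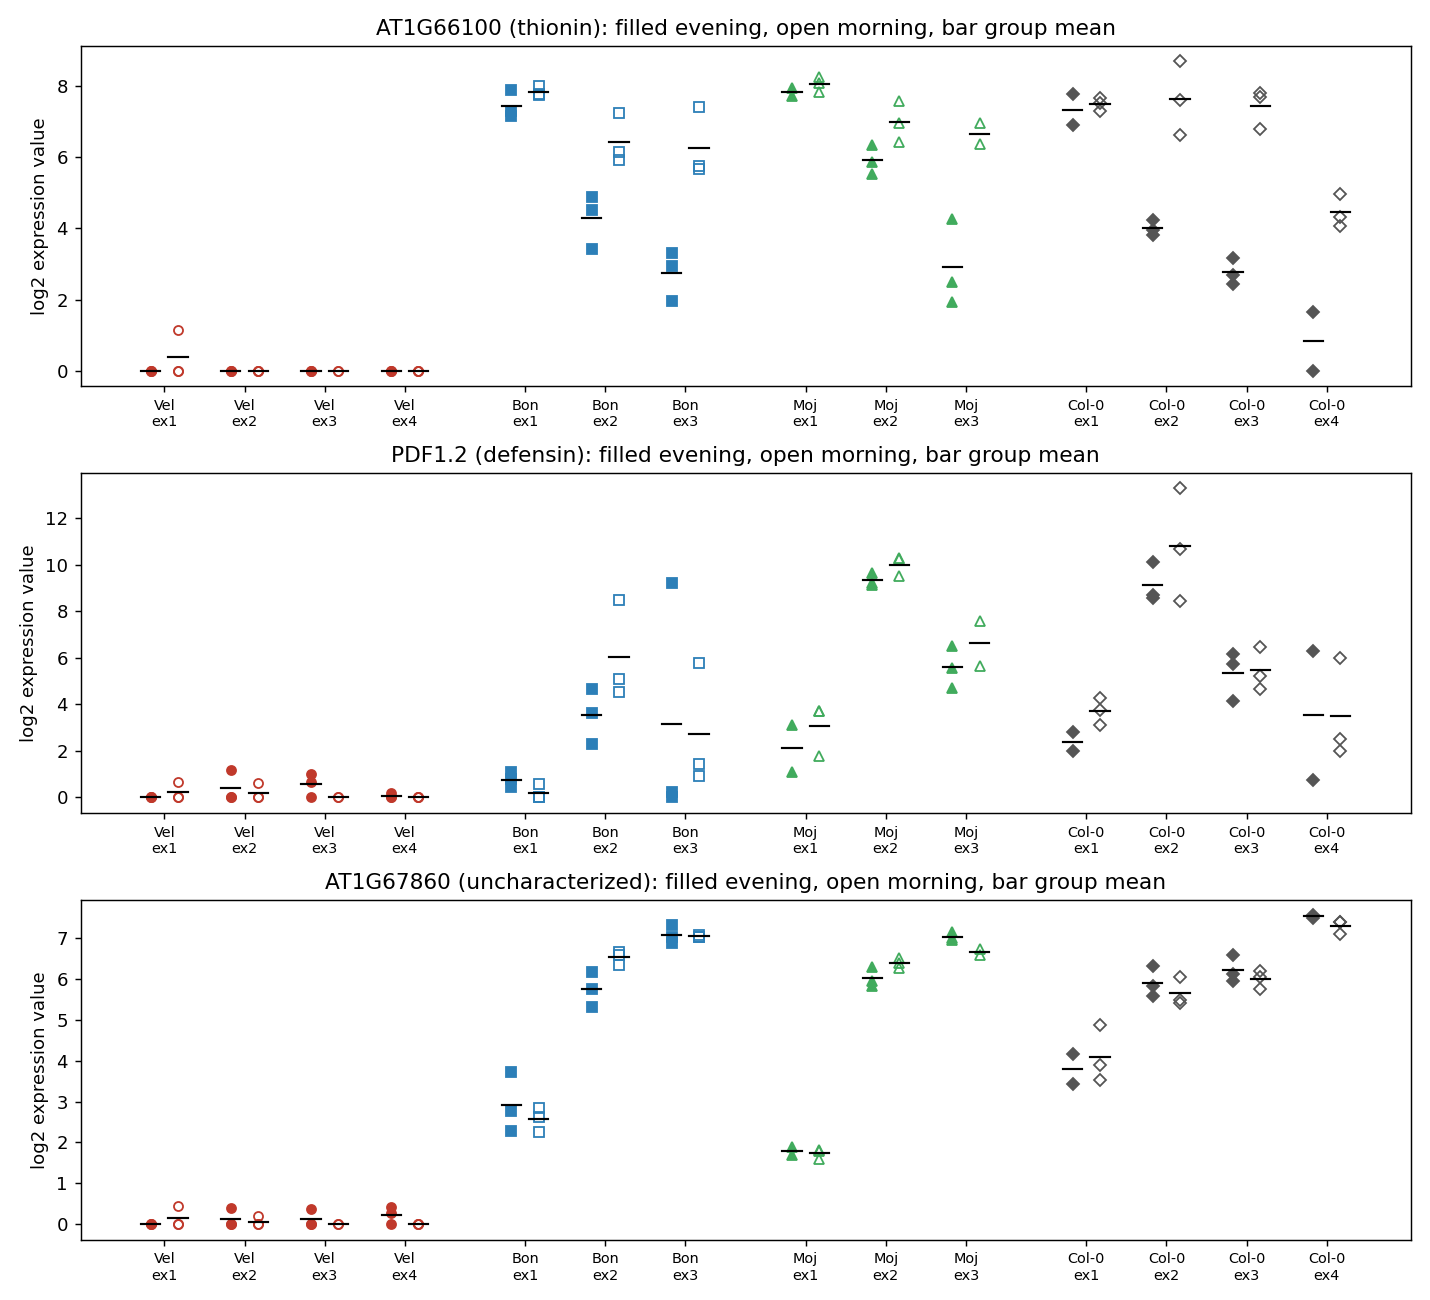
Log2 expression value per library of the thionin gene AT1G66100, the defensin gene PDF1.2 and the uncharacterized AT1G67860 in each accession and collection. Vel stays at or below 1.17 in all 3 panels, while AT1G66100 is lower and AT1G67860 higher in later collections of the other accessions, and PDF1.2 peaks in ex2 in Moj and Col-0.

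From the second to the third collection 15 of the 34 low genes were higher and 7 lower in ex3, against 29.1% higher and 27.5% lower of all genes, 56.6% in all. The 15 include the identical F-box copies AT1G24800, AT1G24881, AT1G25055 and AT1G25150, whose values are not independent. With the spread of these accessions alone 15 were higher and 6 lower, against 29.1% and 27.6%. AT5G42825 rose by 0.83, AT1G53887 by 0.75 and AT3G53310 by 0.76 (adjusted p = 5.55e-13, 8.26e-13 and 1.45e-11, limma). PDF1.2 fell by 3.33 ± 0.533 and AT1G66100 fell by 1.09 ± 0.183, both in all 6 pairs (SE, adjusted p = 4.48e-07 and 1.30e-06, limma). These 2 collection comparisons share the ex2 libraries.

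Among the high genes in Vel, 18 of 30 were higher and 8 lower in ex2 than in ex1 with all libraries, against 32.9% higher and 37.2% lower of all genes, 70.1% in all, and 16 were higher and 5 lower with Vel alone, against 34.3% and 38.8%. AT1G42705, an annotated pseudogene, had the largest difference. It averaged 2.29 ± 0.265 in ex2 and 0.38 ± 0.143 in ex1 in Vel, a difference of 1.91 ± 0.101 (SE, adjusted p = 6.07e-12, limma, Vel libraries alone), and stood at 2.34 in ex3 and 2.48 in ex4. AT2G24513 rose by 1.65 and AT5G37125 by 1.2, and the receptor AT1G59780 rose by 0.97 (adjusted p = 5.50e-08, 5.78e-09 and 5.78e-08, limma, Vel libraries alone). AT5G28560 fell by 0.55, AT4G29770 fell by 0.41 and AT3G45910 fell by 0.32 (adjusted p = 1.62e-05, 2.17e-04 and 0.00391, limma, Vel libraries alone). From ex2 to ex3 the called genes were few: with all libraries 3 were higher and 1 lower in ex3, against 4.01% and 2.88% of all genes, 6.89% in all. With Vel alone limma called 0 of the 30, with 3 at an unadjusted p under 0.05, against 4.13% higher and 2.73% lower of all genes.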

How the data were processed

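RNA from rosettes of 4 accessions was sequenced in 80 libraries. The authors deposited 1 table of log2 values for 33602 genes, made with FastQC, HISAT2 and StringTie on TAIR10, per the submitters' processing notes, whose versions are not given in the labels. Log base, offset of 1, length normalization and equal distributions were read from the values. No counts are given, so depth is unknown and no interval that needs it is given.

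Members and gene lists were chosen with earlier results of these data known. Means over libraries gave the members, with Moj ex3 morning replicate 1 left out. Genes were placed by locus on RefSeq's TAIR10.1 assembly, where 32835 of 33602 matched. The test was limma 3.58.1 under R 4.3.3 with trend and 1 mean per group, two-sided, on genes that reached 1 in 3 or more libraries, with Benjamini-Hochberg adjustment over all genes tested. It was tested on simulated data first. Copies were searched with BLAST+ 2.17.0. Named genes are the 15 with the largest gap on each side, those with an assigned symbol, neighbours, threshold cases and up to 3 per direction and comparison; other members named were chosen after their values were seen. Alternatives were other thresholds, averages, filters, an offset of 0.1, left-out libraries and, chosen after seeing the data, identical copies counted once and fits of the compared accessions alone. Of the low side, 1 member is counted but not reported by name here.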

Additional observations from a re-analysis of the deposited data

Results flagged for a closer look

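The library labelled Moj ex3 morning replicate 1, which no comparison uses, carried the transcripts of the genes high in Vel only. All 30 genes were above every one of the 16 other Moj libraries, with values between 1.2 and 5.42. Of the 34 genes low in Vel only, 31 were at 0 in it and 32 were below every other Moj library. How this library came to carry a Moj label was not tested.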

How the results depend on the processing

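Thresholds of 0.2 and 2 left 22 genes low and 19 high in Vel only, and thresholds of 0.5 and 1 gave 74 and 51. Without 1 replicate number, the counts ran from 32 to 38 low and from 30 to 31 high genes. Keeping Moj ex3 morning replicate 1 gave 32 low and 25 high genes, all among the 34 and 30. In ex4 every alternative called all tested members in the same direction; genes called over the whole table, 10264, ran from 8916 to 10353 with 1 library left out.

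With Moj ex3 morning replicate 1 kept, evening against morning called 3 high genes in Vel in place of 14 and 15 low genes elsewhere in place of 23. Ex2 against ex1 in Vel called 15 in place of 26, and ex3 against ex2 called 0 in Vel in place of 4 and 11 elsewhere in place of 22. An offset of 0.1 gave 4 and 0 in Vel for evening and for ex3. The spread of Vel alone, chosen after seeing the data, gave 8 and 0 in Vel. Without 1 replicate number the counts in Vel ran from 8 to 13 for evening, from 20 to 27 for ex2 and from 1 to 4 for ex3; elsewhere they ran from 19 to 22, from 26 to 28 and from 18 to 22. The counts in Vel for evening without replicates 2 and 3 were 8 and 9, and for ex3 they were 1 and 2. The difference of AT2G05030 between ex2 and ex1 was -0.54 without replicate 2 and 0.0157 without replicate 3, and that of AT4G36150 between evening and morning was 0.0274 with the Moj library kept. The cause of these changes was not tested.

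Same-numbered ex4 libraries deviated together in 3 of 15 pairs (correlation over 0.1, median 0.058). Over all groups 204 of 1002 pairs did so, with a median of 0.000999 and a highest correlation of 0.655. Differently numbered libraries were not compared, so these values cannot show whether the replicate numbers pair the samples. With the replicate number as a block, 9924 genes, 34 low and 30 high members were called in ex4, and 14 high and 22 low members for evening, 26 and 29 for ex2, and 3 and 22 for ex3. Without counts, depth sets no stated limit, and a value of 0 does not show that a gene is absent.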
